A study of Homo sapiens with 4 samples.

Results

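The MYC and MAX network was described in 4 RNA-seq libraries by 10 genes taken by symbol from the count tables: MYC, MYCN, MYCL, MAX, MXD1, MXD3, MXD4, MXI1, MNT and MLX, out of 52402 symbols in all. Each of the SKOV3 and OVCAR3 ovarian cancer lines gave a library of mock cells (genotype Control) and one of cells with the genotype HERV-K119 KO. In the knockout cells the env (envelope) gene of an endogenous retrovirus, a copy of a virus carried in the human genome, was disrupted with CRISPR-Cas9, and its own transcript was not analysed here. Mock and knockout cultures alike received hygromycin at 100 μg/mL for 2 days from about 18 h after transfection. Each of the 4 groups held 1 library, so a mock and a knockout library of one line are compared with no replicate, and the labels do not say whether a knockout culture was a clone or a pool.

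MYC proteins are transcription factors that bind DNA only as a pair with MAX, at E-box sites such as CACGTG, and they drive genes of growth, ribosome assembly and metabolism. MXD1, MXD3, MXD4, MXI1 and MNT compete for MAX and recruit the SIN3 corepressor to the same sites. MLX is a MAX-like protein that pairs with the glucose-sensing factors MondoA (MLXIP) and ChREBP (MLXIPL). MYC messenger RNA and protein are short-lived, and MYC is often overexpressed in ovarian carcinoma.

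The E-box that the network binds was looked for in the promoters of its own genes and of the target genes named below. In RefSeq promoter windows (GRCh38.p14), the 250 bases before a gene's start held CACGTG, which reads the same on both strands, in 3 of 12 windows of the 9 members other than MYC, against 6.34% of all 35116 windows. Among protein-coding genes measured in OVCAR3, as described below, 1111 had CACGTG in any of their windows and 8826 in none. Those are counts of genes, some with several windows, so their share cannot be set against the share of windows. A match is a description of letters, not of binding. The 3 member windows and those of HK2 and ARRDC4, targets described below, are shown 5′ to 3′ with the E-box in capitals. The first base of the E-box lay 238 bases before the start in MXD4 (chr4:2262110-2262359, minus strand), 193 in MNT (chr17:2401061-2401310, minus strand) and 50 in MLX (chr17:42566850-42567099, plus strand). It lay 194 and 149 bases before the start in HK2 (chr2:74834920-74835169, plus strand) and 210 in ARRDC4 (chr15:97960453-97960702, plus strand).
MXD4: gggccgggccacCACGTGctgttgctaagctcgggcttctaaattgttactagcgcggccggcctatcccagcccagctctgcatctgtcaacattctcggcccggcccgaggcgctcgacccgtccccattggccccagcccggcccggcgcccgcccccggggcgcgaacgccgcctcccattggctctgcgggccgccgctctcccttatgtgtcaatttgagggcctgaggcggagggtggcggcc
MNT: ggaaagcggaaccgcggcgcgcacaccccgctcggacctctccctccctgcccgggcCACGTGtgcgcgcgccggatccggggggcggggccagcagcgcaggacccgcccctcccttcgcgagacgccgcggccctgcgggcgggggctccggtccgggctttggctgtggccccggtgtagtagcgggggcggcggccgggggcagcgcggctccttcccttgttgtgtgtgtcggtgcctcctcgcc
MLX: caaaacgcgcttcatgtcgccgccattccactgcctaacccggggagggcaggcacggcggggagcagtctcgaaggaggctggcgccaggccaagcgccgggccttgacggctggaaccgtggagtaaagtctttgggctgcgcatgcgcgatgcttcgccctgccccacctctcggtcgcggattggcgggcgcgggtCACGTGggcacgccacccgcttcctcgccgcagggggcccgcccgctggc
HK2: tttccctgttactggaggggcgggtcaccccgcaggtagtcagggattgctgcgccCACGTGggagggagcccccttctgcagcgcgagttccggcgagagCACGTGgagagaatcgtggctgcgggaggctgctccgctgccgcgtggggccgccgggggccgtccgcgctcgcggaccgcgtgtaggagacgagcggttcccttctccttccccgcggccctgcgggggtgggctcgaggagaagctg
ARRDC4: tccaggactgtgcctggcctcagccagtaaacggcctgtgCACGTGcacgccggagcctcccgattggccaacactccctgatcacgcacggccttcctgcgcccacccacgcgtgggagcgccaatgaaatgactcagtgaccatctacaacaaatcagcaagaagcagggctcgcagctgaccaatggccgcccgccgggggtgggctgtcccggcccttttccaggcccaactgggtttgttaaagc

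Total counts were between 15145483 and 22057693 per library, and levels below are CPM, the counts of a gene per 1000000 counts of its library, scaled by the trimmed mean of M values (TMM). The OVCAR3 knockout library stood apart from the other 3: mitochondrial rows took 21.9% of its counts, against 5.16% to 5.93% in the others, and its ratios to mock went with GC content (Spearman correlation across 12543 protein-coding genes of -0.42, against 0.13 in SKOV3). CDKN2A, known to be deleted in SKOV3, went against the line label, as it had 90.6 CPM in the SKOV3 mock library against 50.5 in the OVCAR3 mock. ERBB2, amplified in SKOV3, had 58.5 against 73.3 CPM, so SKOV3 and OVCAR3 stand below for what the libraries are labelled. The 6 markers of the labelled epithelial cell type (EPCAM, KRT8, KRT18, KRT19, CDH1 and CLDN4) were all counted in all 4 libraries. Their summed level was 5564 CPM in SKOV3 mock, 5170 in SKOV3 knockout, 7615 in OVCAR3 mock and 2094 in OVCAR3 knockout. The 9 markers of leukocytes, fibroblasts and endothelium summed to between 36.3 and 54.3 CPM, nearly all of it CD68 and COL1A1, with 3 to 5 of them at 0 in a library. PTPRC, CD3E and COL3A1 were at 0 in all 4.

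MYC (chr8:127735434-127741434, plus strand, GRCh38 in GENCODE 29, as for all positions of genes below) was lower in the knockout than in the mock library of both lines. Its level was 495 CPM in SKOV3 mock, 361 in SKOV3 knockout, 483 in OVCAR3 mock and 123 in OVCAR3 knockout, from 11183, 5686, 7930 and 1811 counts. The mock libraries thus lay close to each other, and the OVCAR3 knockout lay far below the other 3. The log2 ratio of knockout over mock, computed with a prior count of 2, was -0.46 in SKOV3 (exact 95% counting interval -0.50 to -0.41), which is 1.37-fold lower. In OVCAR3 it was -1.97 (-2.05 to -1.90), which is 3.92-fold lower. Of all measured genes, 4.30% had a smaller ratio than MYC in SKOV3 and 2.78% in OVCAR3. Intervals cover counting error only. In bulk RNA, fewer cells with a transcript and less of it per cell cannot be told apart.

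**Figure D1:**
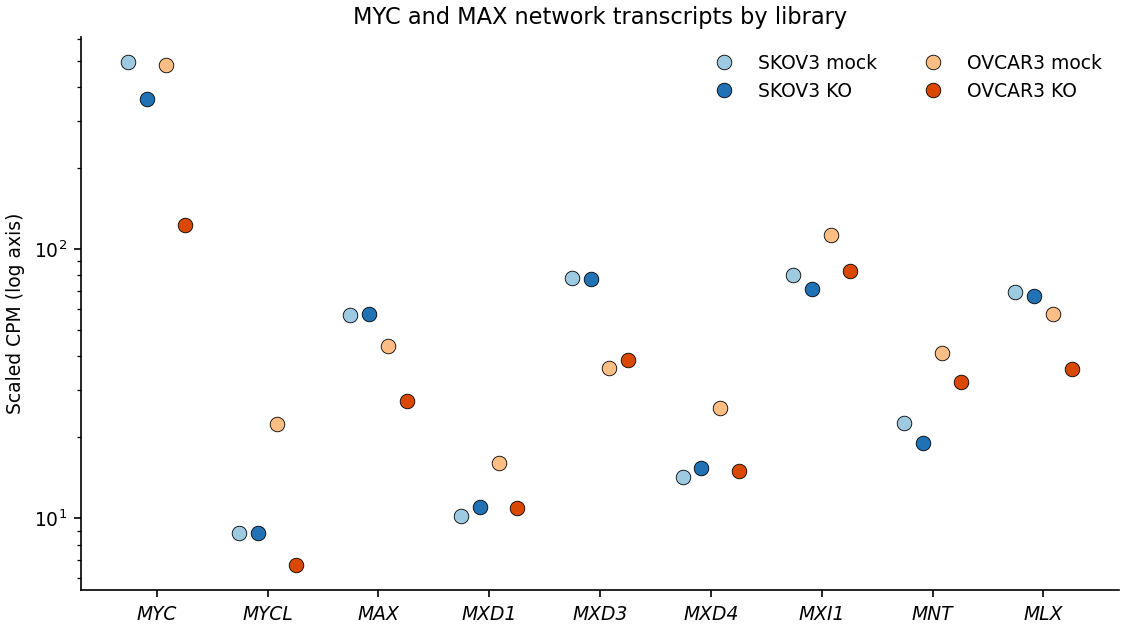
Scaled CPM (log axis) of the 9 detected members, with 1 point per library. MYC lies at 495, 361, 483 and 123 CPM, and the OVCAR3 knockout point is the lowest of the 4 for MYC, MYCL, MAX and MLX.

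The other MYC paralogs were scarce. MYCL (chr1:39895426-39902256, minus strand), first found in lung cancer, had 8.81 CPM in SKOV3 mock, 8.82 in SKOV3 knockout, 22.3 in OVCAR3 mock and 6.72 in OVCAR3 knockout. Its OVCAR3 mock library was the highest and the OVCAR3 knockout the lowest, a log2 ratio of -1.72 (-2.07 to -1.41), or 3.29-fold lower. In SKOV3 the ratio was 0.00 (-0.32 to 0.32), from 199 and 139 counts. Per length of the longest transcript, MYCL was between 1.29% and 3.97% of MYC. MYCN (chr2:15940564-15947007, plus strand), the paralog known from neuroblastoma, had a count of 0 in all 4 libraries, which allows up to 3 counts in a library, or 0.136 to 0.198 CPM before scaling.

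MAX (chr14:65006174-65102695, minus strand), the shared partner, had 57.0 CPM in SKOV3 mock, 57.2 in SKOV3 knockout, 43.5 in OVCAR3 mock and 27.3 in OVCAR3 knockout. The SKOV3 libraries nearly coincided (log2 ratio 0.01, -0.12 to 0.13). The OVCAR3 knockout was below its mock (-0.67, -0.85 to -0.50), less far from 0 than MYC. MLX (chr17:42567068-42573239, plus strand), the MAX-like partner of MondoA and ChREBP, had 69.1, 66.8, 57.3 and 35.8 CPM in the same libraries. Its log2 ratio was -0.05 (-0.16 to 0.07) in SKOV3 and -0.68 (-0.84 to -0.53) in OVCAR3. MLX shares 770 exon bases with PSMC3IP on the opposite strand, and without a stated strand setting their reads cannot be told apart there. PSMC3IP went the other way, at 0.23 (0.09 to 0.37) and 0.47 (0.26 to 0.69).

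Of the MAX partners that oppose MYC, none had a ratio as far from 0 as MYC in either line. MXI1 (chr10:110207605-110287365, plus strand), which recruits SIN3 corepressors, had 79.9 CPM in SKOV3 mock, 71.0 in SKOV3 knockout, 113 in OVCAR3 mock and 82.8 in OVCAR3 knockout. Both knockout libraries were below their mock, by log2 ratios of -0.17 (-0.28 to -0.06) and -0.45 (-0.56 to -0.35). MNT (chr17:2384060-2401118, minus strand), a broadly expressed antagonist, was also lower in both, at -0.24 (-0.45 to -0.03) and -0.35 (-0.52 to -0.18), with 22.5, 19.1, 41.0 and 32.2 CPM. MXD1 (chr2:69897688-69942945, plus strand), linked to differentiation, had 10.2 and 11.0 CPM in the SKOV3 libraries (0.11, -0.18 to 0.41) and 16.1 and 10.9 CPM in the OVCAR3 ones (-0.56, -0.85 to -0.27). The SKOV3 libraries of MXD1 did not differ beyond counting error. MXD4 (chr4:2247432-2262294, minus strand), a further repressor of the MXD family, had 14.3 and 15.4 CPM in SKOV3 (0.11, -0.13 to 0.36) and 25.8 and 15.0 CPM in OVCAR3 (-0.78, -1.02 to -0.54).

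MXD3 (chr5:177301461-177312757, minus strand), the family member expressed in dividing cells, was the exception in OVCAR3. It had 78.3 CPM in SKOV3 mock, 77.4 in SKOV3 knockout, 36.2 in OVCAR3 mock and 38.6 in OVCAR3 knockout, so the libraries split by line and not by genotype. Its log2 ratio of knockout over mock was -0.02 (-0.12 to 0.09) in SKOV3 and 0.09 (-0.08 to 0.26) in OVCAR3. The sign in OVCAR3 turned with the scaling, to -0.12 with DESeq2 size factors and -0.20 with TMM over all rows. MXD3 shares 1158 exon bases with PRELID1 on the opposite strand and 926 with RAB24 on its own, and reads there could be counted for either gene. PRELID1 had 208, 203, 119 and 63.7 CPM in the order above, and RAB24 had 10.6 CPM or less.

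The log2 ratio was below 0 for 5 of 9 measured members in SKOV3, against 48.9% of all 13524 measured genes, and for 8 of 9 in OVCAR3, against 43.8% of 15560. Its counting interval lay below 0 for 3 members in SKOV3 (MYC, MXI1 and MNT), against 18.1% of all genes. In OVCAR3 it lay below 0 for all but MXD3, against 34.9%. It lay above 0 for no member in either line, against 17.6% and 44.8% of all genes. By a rule of size, a ratio of at least 2-fold with at least 1 CPM in 1 library, no member passed in SKOV3 in either direction, where 0.799% of all genes were higher and 0.739% lower. In OVCAR3 MYC and MYCL passed downward and none upward, where 15.4% of all genes were lower and 22.5% higher (2390 and 3504 genes). Of 12543 protein-coding genes, the class of every member, 6360 had a ratio below 0 in OVCAR3. By the rule of size 2291 of them were lower and 1630 higher, with a median of -0.02. The split over all genes turned with the scaling, to 3115 lower and 2817 higher with DESeq2 size factors and 3417 and 2594 with TMM over all rows. The median log2 ratio over the 9 members was -0.02 in SKOV3 and -0.67 in OVCAR3, beside 0.01 and 0.16 over all measured genes. The OVCAR3 values rest on the library that stood apart, and the part of its mitochondrial share, its GC trend and its lower epithelial markers in them was not tested.

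**Figure D2:**
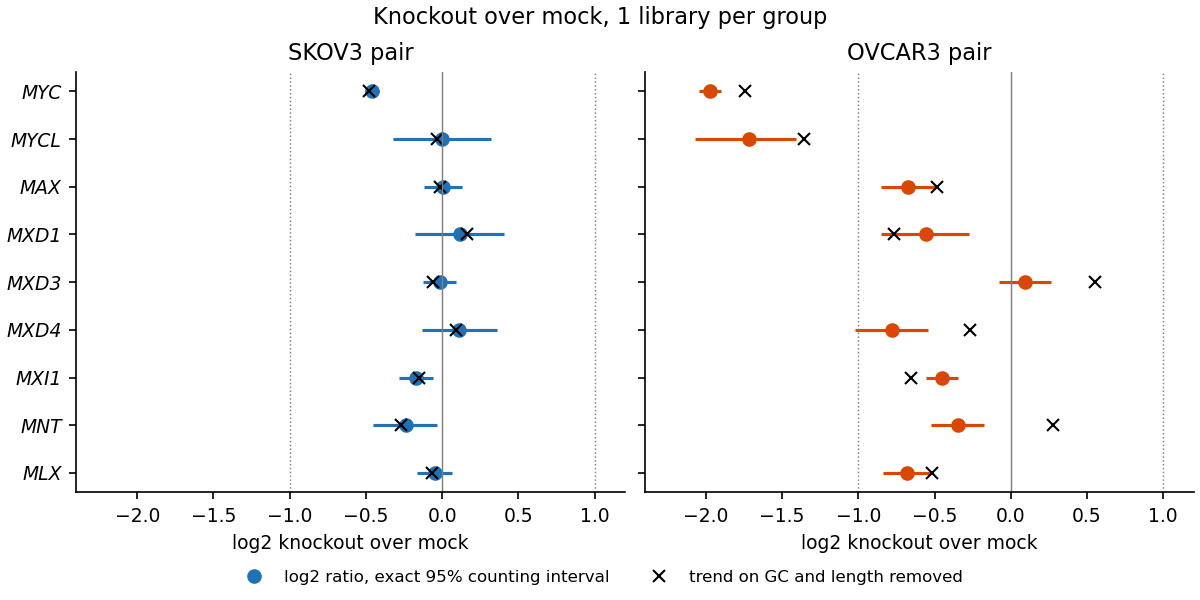
Log2 ratio of knockout over mock for each detected member in the SKOV3 pair (left) and the OVCAR3 pair (right), with bars for the exact 95% counting interval and crosses for the ratio after removal of the trend on GC content and length. Dotted lines mark 2-fold, which MYC and MYCL pass in OVCAR3, and the cross of MNT lies on the other side of 0 from its point there.

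Removing the trend of the log2 ratio on GC content and transcript length left MYC the lowest member in OVCAR3, at -1.74, and MYCL next, at -1.36. The GC-rich members moved most. MNT, with 61.4% GC in its longest transcript, turned from -0.35 to 0.28, MXD3 (61.3% GC) went from 0.09 to 0.55, and MXD4 (57.6% GC) from -0.78 to -0.26. MXD1 and MXI1, with 42.7% and 43.7% GC, went to -0.76 and -0.66. MAX went from -0.67 to -0.48 and MLX from -0.68 to -0.52. The OVCAR3 order of the antagonists therefore depended on this correction. In SKOV3 no member moved by more than its counting interval, and MYC stood at -0.48.

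Levels of different members were compared per kilobase of the longest GENCODE 29 transcript. By this length MYC led in all 4 libraries, at 209 CPM per kb in SKOV3 mock, 152 in SKOV3 knockout, 204 in OVCAR3 mock and 52.0 in OVCAR3 knockout. Next in the SKOV3 libraries came MXD3 (34.4 CPM per kb in mock), MLX (26.7), MXI1 (23.0) and MAX (18.1). In the OVCAR3 mock library MXI1 (32.6) came before MLX (22.2), MXD3 (15.9) and MAX (13.8), and the counting intervals of MXD3 and MAX overlapped there. By the longest transcript, MNT, MXD4, MYCL and MXD1 formed the low end in every library, all at 8.21 CPM per kb or less. Within it, the intervals of MXD4 and MYCL overlapped in both mock libraries, and those of MYCL and MXD1 in both knockout libraries. In SKOV3 knockout those of MXI1 and MAX and of MNT and MXD4 overlapped as well. The ranks depend on the length used. With coding lengths (885 bases for MXI1, 1362 for MYC) or median transcript lengths (884 and 1365), MXI1 comes level with MYC or slightly above in OVCAR3 knockout. With median lengths MNT (580 bases, against 4996 in its longest transcript) comes above MAX (728 against 3155) in OVCAR3 mock.

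The level of MYC relative to its summed antagonists (MXD1, MXD3, MXD4, MXI1 and MNT, per kb) was lower in the knockout than in the mock library of both lines. It was 3.12 (95% counting interval 3.01 to 3.23) in SKOV3 mock, 2.39 (2.28 to 2.50) in SKOV3 knockout, 3.10 (2.98 to 3.23) in OVCAR3 mock and 0.985 (0.927 to 1.05) in OVCAR3 knockout. A ratio within a library does not depend on its scaling factor. The summed antagonists differed less between libraries than MYC, at 67.1, 63.8, 65.7 and 52.8 CPM per kb. MXD3, whose exons overlap those of PRELID1 and RAB24, gave 34.4 of the 67.1 in SKOV3 mock. MXD1 shares 237 exon bases with SNRNP27 on its own strand. The counting intervals leave such overlaps out. MYC over MAX was 11.6, 8.41, 14.8 and 6.01 with the longest transcripts, of 2366 and 3155 bases. For MYC and MAX the coding lengths are 1362 and 480 bases, and the median transcript lengths 1365 and 728. With either of these lengths MYC over MAX is smaller. The values depend on which transcript length is used: with coding lengths MYC over antagonists was 1.74, 1.33, 1.43 and 0.486, and with median transcript lengths 1.68, 1.31, 1.25 and 0.427. Each knockout library was below its mock under all 3 lengths, but the mock libraries lay close to each other with the longest transcripts only, and with median lengths OVCAR3 mock was below SKOV3 knockout.

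**Figure D3:**
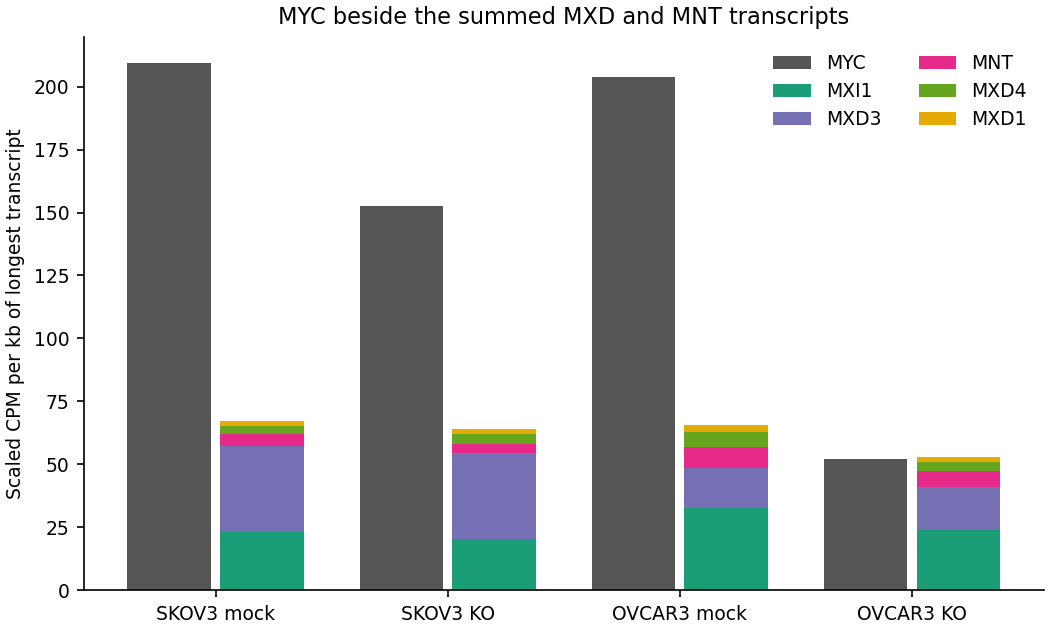
Scaled CPM per kb of the longest transcript for MYC (grey bars) beside the stacked MXI1, MXD3, MNT, MXD4 and MXD1 in each library. The grey bar is 3.12 and 3.10 times the stack in the mock libraries, 2.39 times in SKOV3 knockout and 0.985 times in OVCAR3 knockout.

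Across both lines, with the line as a block, edgeR's quasi-likelihood test called no member and no gene at all at an adjusted p of 0.05 (0% of 13693 tested in either direction, with 71 higher and 76 lower at an unadjusted p under 0.05). The fit has 1 residual degree of freedom per gene, since the line is the only replicate of the knockout. MYC had a log2 change of -1.21 (SE 0.53), lower in 2 of 2 lines, with an edgeR adjusted p of 0.957. Its unadjusted edgeR p was 0.0452, and 0.555% of all genes were lower and 0.519% higher at a p under 0.05. MYCL had -0.87 (SE 0.54), MLX -0.36 (SE 0.39) and MAX -0.33 (SE 0.39), and the antagonists lay between -0.34 for MXD4 and 0.04 for MXD3. DESeq2 and limma-voom called no gene either, with 412 and 315 at an unadjusted p under 0.05. Without the OVCAR3 pair the knockout ratio is that of SKOV3 alone, -0.46 for MYC, with no test. The difference between the lines in the knockout ratio was not tested, since 4 libraries leave nothing to estimate its error from.

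Between the line labels, again no member passed in edgeR's test, which called 4 genes higher (0.0292%) and 1 lower (0.0073%) in OVCAR3 over SKOV3. At an unadjusted p under 0.05, which 5.71% of all genes passed downward and 6.47% upward, MXD3 was the one member. It was the lowest, at a log2 ratio of -1.06 (SE 0.38, edgeR adjusted p = 0.326, unadjusted 0.0206), and it was lower in OVCAR3 with mock libraries only, at -1.11. MNT was the highest, at 0.81 (SE 0.40, edgeR adjusted p = 0.453) and 0.86 between the mock libraries. For MYC the line difference of -0.79 (SE 0.52) came with the OVCAR3 knockout library, since the mock libraries alone gave -0.04. MYCL went from 0.49 in the fit to 1.33 between the mock libraries. MAX (-0.73, and -0.39 between the mock libraries) and MLX (-0.58 and -0.27) were lower, and MXD1, MXD4 and MXI1 lay between 0.33 and 0.41 in the fit and between 0.50 and 0.85 in the mock libraries.

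Genes around the network were read in lists of roles. In SKOV3 no member of any list passed 2-fold, and the list medians lay between -0.16 and 0.11. The farthest was the list of RNA-binding proteins of MYC messenger RNA, at -0.16 with 9 of 10 measured below 0. In it ZFP36, which marks short-lived messages for decay, had 42.5 CPM in the knockout against 58.3 in the mock library (-0.46, -0.59 to -0.32). CNBP, a nucleic acid-binding protein of the MYC promoter, was the member above 0, at 0.17 (0.13 to 0.21).

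Counts of lists in OVCAR3 stand beside the 15.4% of all measured genes that were lower and the 22.5% that were higher by 2-fold. Of the 12543 protein-coding genes, 2291 were lower and 1630 higher. The cofactors that MYC recruits had 7 of 13 measured genes lower by 2-fold and none higher, with a median of -1.24 (-0.98 with the trend removed). RUVBL2, an ATPase of chromatin remodelling complexes, had 75.3 against 370 CPM (-2.29, -2.39 to -2.20), and the elongation factor gene SUPT5H had -2.01 (-2.12 to -1.89). KAT2A, the acetyltransferase GCN5, was above 0, at 0.76 (0.58 to 0.94), and at 1.27 with the trend removed. The SIN3 corepressor, used by the antagonists, had 2 of 14 lower, near the 15.4% of all genes, with a median of -0.03 (-0.26 with the trend removed). Its scaffold gene SIN3A had 31.7 against 80.7 CPM (-1.35, -1.50 to -1.20), and ARID4A was highest, at 0.77 (0.55 to 1.00). Among other partners 2 of 7 were lower: ZBTB17, the gene of MIZ1 through which MYC represses, at -1.45 (-1.67 to -1.25), and MAZ, at -1.30 (-1.44 to -1.17). MLXIPL, the gene of ChREBP, had 51.7 against 32.4 CPM (0.67, 0.51 to 0.84, and 1.23 with the trend removed). MLXIP, the gene of MondoA, had 0.07 (-0.16 to 0.31). The ratio of MLXIP was below 0 with DESeq2 size factors, with no factor and with TMM over all rows, but 0.63 with the trend removed.

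Genes of MYC protein turnover had 5 of 19 lower and 1 higher in OVCAR3, with a median of -0.40. HUWE1, a ubiquitin ligase gene, had 129 against 604 CPM (-2.22, -2.30 to -2.15), while SKP2, the gene of another ligase subunit, had 71.2 against 29.4 CPM (1.27, 1.12 to 1.43). KIAA1524 (CIP2A), an inhibitor of MYC dephosphorylation, lay at the edge of 2-fold, at 1.00 (0.84 to 1.16). Of 11 RNA-binding genes 5 were lower, with a median of -0.89, among them ZFP36 at -1.82 (-1.97 to -1.68) and PCBP2 at -1.55 (-1.62 to -1.48).

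Target genes of MYC were read by role, and differences between the roles were not tested. Nucleolar and ribosome assembly genes had 18 of 39 measured lower by 2-fold and none higher, with 29 below 0 and a median of -0.74 (-0.63 with the trend removed). BOP1, needed for processing of ribosomal RNA, had 67.1 against 361 CPM (-2.42, -2.52 to -2.33), and NOC4L had -2.28 (-2.55 to -2.03). WDR12, which acts in a complex with BOP1, had 121 against 75.5 CPM (0.68, 0.58 to 0.79), and GNL3, nucleostemin, had 0.54 (0.49 to 0.59). In SKOV3 the same list had a median of -0.01, with 20 of 39 below 0, between RCL1 at -0.21 (-0.38 to -0.05) and NOP58 at 0.17 (0.12 to 0.23).

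Metabolic targets had 10 of 32 lower and 1 higher in OVCAR3, with a median of -0.29. PKM, pyruvate kinase, had 346 against 2045 CPM (-2.56, -2.60 to -2.52). HK2, hexokinase 2, for which 1 of 2 windows holds the E-boxes shown above, had 23.1 against 118 CPM (-2.34, -2.52 to -2.18). HK2 was also the lowest of the list in SKOV3, with 70.8 against 102 CPM (-0.53, -0.64 to -0.43). HSPE1, a mitochondrial chaperonin gene, was the member higher by 2-fold in OVCAR3, with 325 against 120 CPM (1.43, 1.36 to 1.51). Cell-cycle targets had 3 of 13 higher (TERT, CBX3 and CKS2) and 1 lower, beside 22.5% of all genes and 1630 of 12543 protein-coding genes higher. With the trend removed those 3 stood at 2.73, 0.41 and -0.13. The median of the list was 0.26 (0.16 with the trend removed), less than the shift of -0.29 that TMM over all rows makes. TERT, the telomerase subunit, had 10.0 against 2.19 CPM (2.14, 1.66 to 2.76), and CCND1, cyclin D1, was lower at 198 against 693 CPM (-1.81, -1.87 to -1.75). HSPE1 and TERT, higher in the knockout, also have CACGTG in their promoter window, 22 and 163 bases before the start.

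The genes that MYC is known to repress, several of them through MIZ1, were mostly lower in the OVCAR3 knockout. Of 11 measured in OVCAR3, 6 were lower by 2-fold and none higher, with a median of -1.16 (-0.77 with the trend removed). CDKN1A, the inhibitor p21, had 110 against 938 CPM (-3.10, -3.17 to -3.02), and ITGB1, integrin beta 1, was the member above 0, at 0.15 (0.11 to 0.19), which turned to -0.06 with DESeq2 size factors, -0.14 with TMM over all rows and -0.32 with the trend removed. In SKOV3 the median was 0.03, from NDRG1 at -0.83 (-0.91 to -0.76) to CEBPA at 0.40 (0.10 to 0.71). Targets of MLX with MondoA or ChREBP had 7 of 8 measured genes lower by 2-fold in OVCAR3, a median of -1.70 (-1.66 with the trend removed). ARRDC4, an arrestin-domain gene with the E-box shown above, had 22.5 against 65.3 CPM (-1.53, -1.72 to -1.36), KLF11 had -1.79 (-2.11 to -1.51) and FASN, fatty acid synthase, -3.24 (-3.32 to -3.17). In SKOV3 KLF10 was the highest of the list, at 0.35 (0.29 to 0.41), with ARRDC4 at 0.32 (0.24 to 0.41). TXNIP, the best known MondoA target, was listed at 0 in all 4 libraries. Low rows also occurred for FBL of the nucleolar list (10, 8, 8 and 4 counts) and for ACACA of the MLX targets (59, 24, 50 and 30). Whether such rows stand for scarce transcripts or for reads lost in mapping or counting was not tested.

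**Figure D4:**
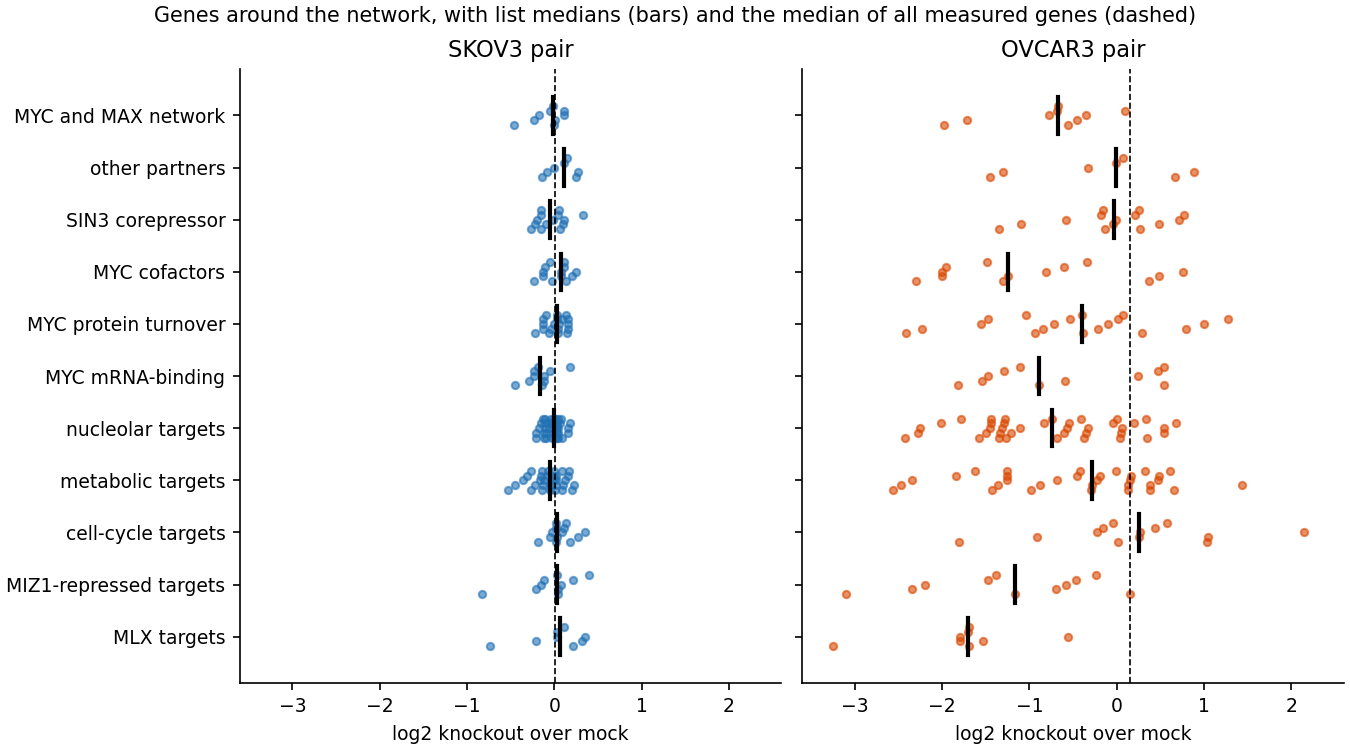
Log2 ratio of knockout over mock for every measured gene of 11 lists in the SKOV3 pair (left) and the OVCAR3 pair (right), with 1 point per gene, black bars at the list medians and a dashed line at the median of all measured genes. In SKOV3 the medians lie between -0.16 and 0.11, and in OVCAR3 they spread from -1.70 for MLX targets to 0.26 for cell-cycle targets.

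Protein-coding genes with an E-box in the promoter window were compared with those without, as a description. In OVCAR3, 1111 genes with CACGTG had a median log2 ratio of -0.16 and 8826 without had -0.01, or -0.18 and -0.13 with the trend on GC content and length removed. In SKOV3 the medians were 0.01 and 0.00. Among the MYC targets of the 3 lists with a window, 18 with CACGTG had a median of -0.26 in OVCAR3 and 50 without had -0.37, and with the trend removed they had -0.42 and -0.41.

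The genes whose pattern over the 4 libraries lay closest to that of MYC were found by the root mean square distance of centred log2 levels, among 10030 genes with at least 5 CPM in every library. They were DYNC1H1, the dynein heavy chain gene (distance 0.0749), WWC1 (0.0761), FOSL2, an AP-1 subunit gene (0.0799), ACTN1, an actinin gene (0.0881), and WDR1 (0.0997). All 5 were near level in the mock libraries and had OVCAR3 ratios between -1.89 and -2.05. Their SKOV3 ratios lay between -0.22 and -0.27, closer to 0 than the -0.46 of MYC. PVT1, the non-coding RNA gene next to MYC on chromosome 8, was looked at after the values were seen. It had 71.2, 68.8, 50.9 and 44.4 CPM, with log2 ratios of -0.05 (-0.16 to 0.06) in SKOV3 and -0.20 (-0.35 to -0.05) in OVCAR3.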

How the data were processed

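RNA was measured by RNA-seq with a directional kit, per the labels' protocols, in 4 libraries (SKOV3 and OVCAR3, mock and HERV-K env knockout, 1 each), grouped by sample title. The deposited values are raw counts per gene symbol. TopHat and GRCh38 were used, per the submitters' processing notes. The counting tool was not given in the sources used here, nor was its strand setting. Each table held 58173 rows, and the 2687 repeated symbols were summed, leaving 52402. Totals were 22057693 (SKOV3 mock), 15145483 (SKOV3 knockout), 16298490 (OVCAR3 mock) and 15825915 (OVCAR3 knockout).

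TMM factors (edgeR 4.0.16, R 4.3.3) came from genes with at least 1 CPM in 2 libraries and were 1.02, 1.04, 1.01 and 0.931 in that order. Ratios used a prior count of 2 and carry exact 95% Clopper-Pearson intervals of the raw ratio. edgeR's quasi-likelihood test was fitted on 13693 genes with line and genotype as terms and Benjamini-Hochberg adjustment. It was also run on simulated counts with equal knockout effects in both lines, a setting unlike these pairs. DESeq2 1.42.0 and limma 3.58.1 (voom) were alternatives. Nothing says how cultures were kept apart, so p-values measure only the spread between these libraries. GC content, length and positions came from GENCODE 29, which held 63.7% of symbols and all members. The trend was a spline with 5 degrees of freedom on each of GC content and log length.

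Members and lists were chosen with earlier results of these data known. The genes named per list were the 2 lowest and 2 highest in OVCAR3 and the lowest and highest in SKOV3, among those with at least 100 counts in all. The text gives a part of them, and TXNIP, FBL, CKS2, PVT1 and the genes overlapping members were added after their values were seen.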

Additional observations from a re-analysis of the deposited data

Results flagged for a closer look

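No member of the network had ratios of opposite sign in the lines with both counting intervals clear of 0. Of 61 other genes named by the rule, 19 did, and each pair of values is given here as knockout over mock (log2) in SKOV3 and then in OVCAR3. The same held for 13.4% of 13294 genes measured in both lines, but the 61 were taken as the extremes of their lists, so the shares cannot be compared. The difference between the lines was not tested, and each direction rests on 1 library per group.

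Among MLX targets KLF10 had 0.35 and -1.70, ARRDC4 0.32 and -1.53, KLF11 0.22 and -1.79, and FASN 0.0305 and -3.24. Among genes repressed by MYC CEBPA had 0.40 and -0.70, GADD45A 0.0773 and -2.34, CDKN1A 0.0364 and -3.10, and ITGB1 -0.16 and 0.15. Among nucleolar and metabolic targets NOC4L had 0.15 and -2.28, WDR12 -0.17 and 0.68, FARSA 0.12 and -2.46, and SLC19A1 0.23 and -0.88. The cell-cycle targets MCM5 and CUL1 had 0.17 and -0.91, and -0.18 and 0.26. MAZ had 0.11 and -1.30, SUPT5H 0.0786 and -2.01, PLK1 0.15 and -2.42, GSK3A 0.16 and -1.47, and TIAL1 -0.12 and 0.54. Of these values, FASN in SKOV3 turned to -0.03 with the trend on GC content and length removed, and CUL1 in OVCAR3 to -0.03 with TMM over all rows. ITGB1 in OVCAR3 turned to -0.06 with DESeq2 size factors, -0.14 with TMM over all rows and -0.32 with the trend removed.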

How the results depend on the processing

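No paired analysis was possible because each group held 1 library and the groups share a single replicate number, beyond the pairing by line that the fit over both lines already holds as a block. MYC kept its direction under all 9 alternatives of its ratio in each line (-0.48 to -0.43 in SKOV3, -2.26 to -1.74 in OVCAR3), as did MYCL in OVCAR3 (-1.36 at the least). The filters among them cannot change a ratio, and the prior counts hardly move one at these counts. The ranges therefore come from the scaling and the trend removal. Other scaling moved the median ratio of all genes in OVCAR3 by -0.21 (DESeq2 size factors), -0.11 (no factor) and -0.29 (TMM over all rows, added after seeing the data). MXD3 over both lines, 0.04, turned to -0.0742 with DESeq2 size factors and -0.11 with TMM over all rows. At 1.5-fold 5 of 9 measured members were lower in OVCAR3 in place of 2, beside 3928 of all 15560 measured genes in place of 2390. MYC over its antagonists was 1.74, 1.33, 1.43 and 0.486 with coding lengths and 1.68, 1.31, 1.25 and 0.427 with median transcript lengths (SKOV3 mock, SKOV3 knockout, OVCAR3 mock, OVCAR3 knockout).

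Over all genes in SKOV3 (108 higher, 100 lower), 505 were higher and 379 lower at 1.5-fold, 13 and 36 at 3-fold, 1097 and 1173 with no filter, and 6 and 8 with at least 5 CPM. A prior count of 5 gave 71 higher, and the trend removal 39 lower. In OVCAR3 (3504 higher, 2390 lower), 3928 were lower at 1.5-fold and 939 at 3-fold, and 8078 were higher with no filter, 1412 with at least 5 CPM and 1460 with the trend removed. With no filter 1 gene was higher over both lines. Between the lines (4 higher, 1 lower) DESeq2 called 121 and 63, no filter 142 and 84, and at least 5 CPM 52 and 9. Calls were 0 and 0 with DESeq2 size factors, with TMM over all rows and with mitochondrial rows left out, where edgeR gave 1429, 1335 and 1633 genes an unadjusted p under 0.05. The cause was not tested. Depth limits MYCN, at 0 counts, and MYCL, at 99 to 367 counts.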
